A study of Mus musculus with 40 samples.

Results

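The 5 genes described here, Lpcat3, Mylip, Pltp, Npc1 and Tsku, are targets of the liver X receptors (LXRs) that act on phospholipids and on sterol traffic, and were taken by name as 5 of the 15958 genes in a table of bulk RNA-seq values. All 5 were measured and passed the filter on low values in every tissue. The libraries came from the duodenum, the post-anastomotic ileum and the liver of male wild-type C57BL/6 mice that were 8 weeks old at surgery. Sham vehicle mice had a sham operation and vehicle, SBR vehicle mice had a small bowel resection (SBR), 50 to 60% by the labels and larger by the study's own text, and vehicle, and SBR WUSTL0717 mice had the same resection and oral WUSTL0717 at 30 mg/kg each day. WUSTL0717 is an amide analog of the LXR agonist GW3965 that was made to act in the gut, and gavage began 3 weeks after surgery and ran for 7 weeks in every group. In the order sham vehicle, SBR vehicle and SBR WUSTL0717, there were 3, 4 and 4 libraries of duodenum, 3, 4 and 4 of ileum and 5, 8 and 5 of liver. There was no sham group given WUSTL0717, so the effect of the compound was measured in resected mice, and the comparisons of resection and of compound share the SBR vehicle libraries.

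LXRs are nuclear receptors that bind oxysterols and, paired with the retinoid X receptor, switch on genes that lower the sterol load of a cell. Lpcat3 encodes an acyltransferase that puts polyunsaturated acyl chains into membrane phospholipids and is needed for lipid uptake by the enterocyte. Mylip encodes IDOL, a ubiquitin ligase that sends lipoprotein receptors to degradation. Pltp encodes the plasma phospholipid transfer protein, which moves phospholipid onto HDL. Npc1 encodes the membrane protein through which cholesterol leaves late endosomes. Tsku encodes tsukushi, a secreted small leucine-rich proteoglycan made by liver and other tissues.

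Values are log2(TPM + 1) after the authors' correction for batch, in which TPM is a transcript abundance scaled for gene length and library size, and a value in TPM below is that number taken back to the linear scale. The intestinal libraries were one batch and the liver libraries another, so levels are compared within the intestine and within the liver only. Albumin, the defining hepatocyte transcript, had a mean of 9.35 in liver and 8.27 in intestine on this log2 scale, and values from before the correction were not analysed here. Read depth is unknown, since the table holds no counts, and values summed to between 618191 and 863090 TPM per library. Called means an adjusted p under 0.05 over all genes tested, by limma. The labels do not say which duodenum and ileum libraries came from one mouse, and p-values measure the spread between these libraries, which may be technical in part.

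Lpcat3 lies at chr6:124663027-124704418 on the plus strand of GRCm38, Mylip at chr13:45389742-45412022 on the plus strand, Pltp at chr2:164839518-164857711 on the minus strand and Tsku at chr7:98350668-98361328 on the minus strand. The DNA just upstream of the start is shown for the 3 genes of these with the widest differences in the intestine, so that the promoters of genes that share one receptor can be read side by side. The sequences are from RefSeq (GRCm38.p6), 5′ to 3′ on the strand of the gene, ending at the base before the first transcribed base, and capitals mark a CCAAT box, the GC box GGGCGG or the TATA box TATAAA on either strand.
Lpcat3, chr6:124662854-124663026, plus strand: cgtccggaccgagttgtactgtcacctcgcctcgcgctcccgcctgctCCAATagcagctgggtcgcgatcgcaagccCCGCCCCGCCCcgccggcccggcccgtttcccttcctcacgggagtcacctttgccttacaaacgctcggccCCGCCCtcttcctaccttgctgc
Mylip, chr13:45389492-45389741, plus strand: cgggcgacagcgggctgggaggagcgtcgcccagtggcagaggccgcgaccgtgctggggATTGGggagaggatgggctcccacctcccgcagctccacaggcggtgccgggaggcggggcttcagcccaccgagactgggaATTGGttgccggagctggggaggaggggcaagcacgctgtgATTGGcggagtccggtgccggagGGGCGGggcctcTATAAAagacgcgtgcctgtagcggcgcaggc
Tsku, chr7:98361329-98361578, minus strand: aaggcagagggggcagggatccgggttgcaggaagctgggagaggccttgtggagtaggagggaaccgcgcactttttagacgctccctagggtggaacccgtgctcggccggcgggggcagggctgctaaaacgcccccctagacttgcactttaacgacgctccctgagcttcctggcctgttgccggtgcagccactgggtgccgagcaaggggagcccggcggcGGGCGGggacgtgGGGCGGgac

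In the full window of 250 bases before to 50 bases after the start used for counting, Lpcat3 held 4 CCAAT and 6 GGGCGG matches, Mylip held 3 and 1, Tsku held 0 and 2, and Pltp held 1 and 1, counted on both strands. For Lpcat3 that start lay inside the gene, so its window (chr6:124662854-124663153) runs further past the first transcribed base. The stretch of Lpcat3 printed above, which ends before that base, holds 1 CCAAT and 3 GGGCGG matches. A CCAAT box was present in 37.4% and GGGCGG in 35.7% of 32851 mouse promoter windows of the same length. TATAAA was found once each in Mylip and Pltp and in 13.6% of all windows. The motif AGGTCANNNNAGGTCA, known as DR4 and bound by LXR with its partner, was in none of these 4 windows and in 0.0152% of all windows, and the hexamer AGGTCA was also in none of them against 16.3% of all windows. No match says only that these letters are not in this window.

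**Figure D1:**
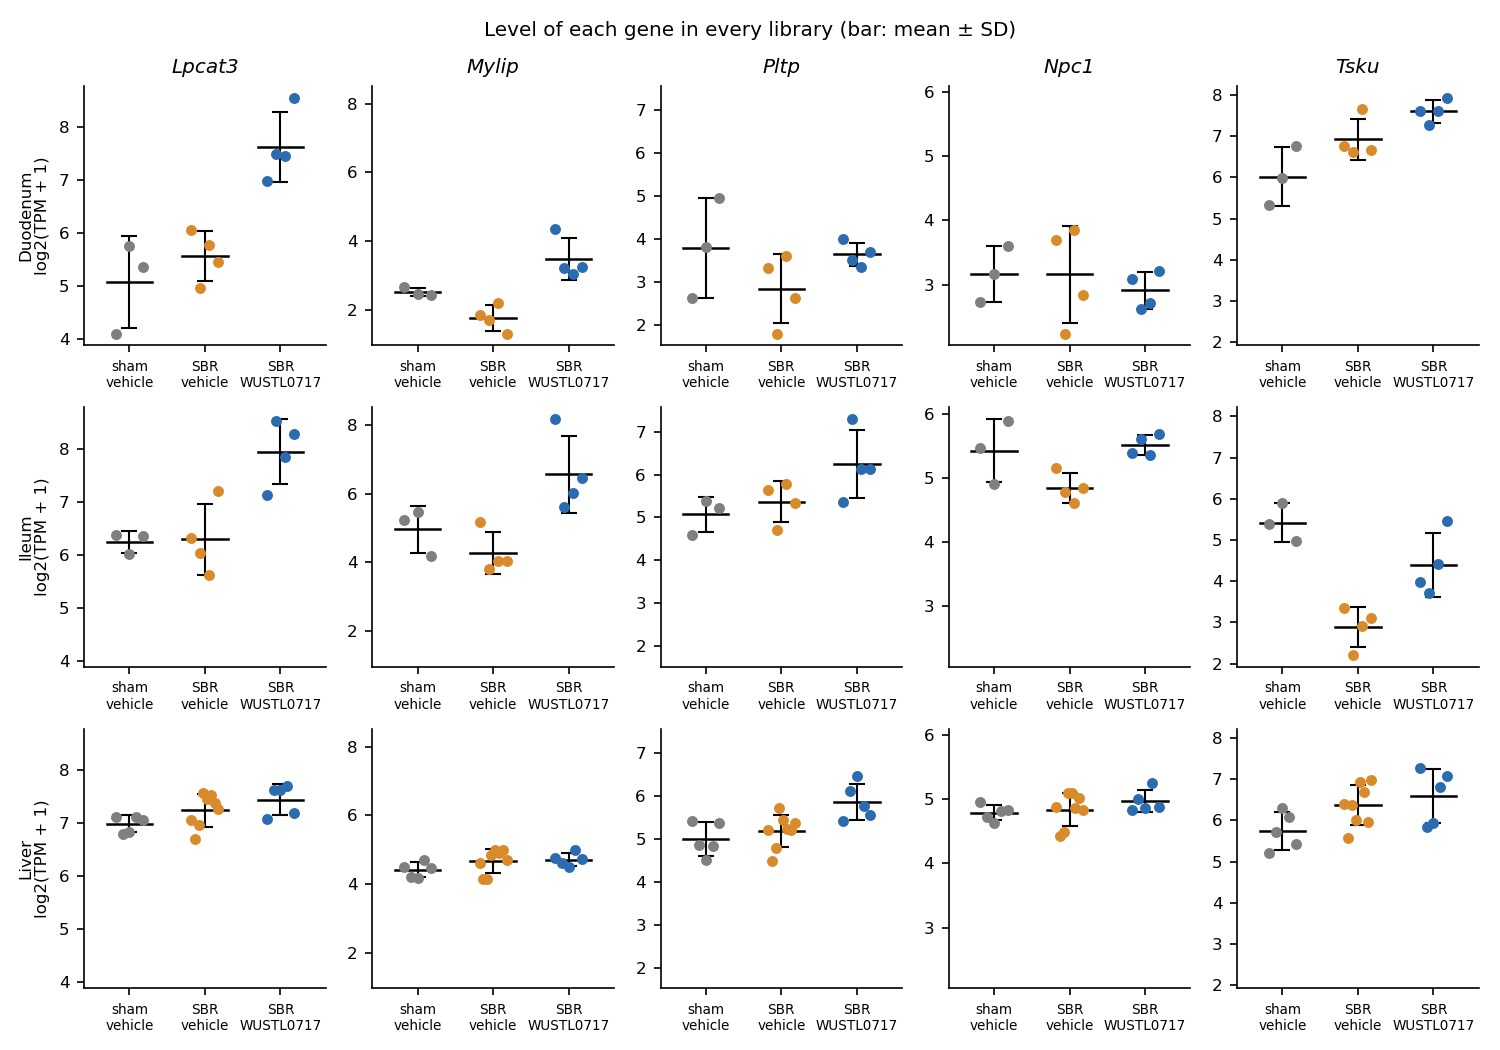
Level of each of the 5 genes in every library, as log2(TPM + 1) on the vertical axis, with duodenum, ileum and liver in separate rows of panels, which share an axis range for each gene, and groups along the horizontal axis. Points are libraries and bars are the mean and SD, and the liver panels cannot be set against the intestinal ones. Tsku in the ileum has all 4 SBR vehicle libraries at 2.21 to 3.34, under all 3 sham libraries at 4.97 to 5.90.

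Lpcat3 was higher with WUSTL0717 than in SBR vehicle in both parts of the intestine in mean value, by 4.17-fold and 3.15-fold, neither of them called. In the duodenum the SBR WUSTL0717 libraries stood at 6.99, 7.50, 7.47 and 8.56, the SBR vehicle libraries at 6.07, 4.97, 5.78 and 5.46 and the sham libraries at 4.11, 5.77 and 5.37. Every treated library was above every untreated one, and the mean level went from 36.7 TPM in sham and 48.4 TPM in SBR vehicle to 215 TPM with the compound. The difference from SBR vehicle was 2.06 ± 0.48 on the log2 scale (SE, 4 against 4 libraries), or 4.17-fold, with a 95% interval of 1.01 to 3.11. It was not called by limma (adjusted p = 0.172), and the exact two-sided permutation p of 0.0286 was the smallest that 4 against 4 libraries allow. Against sham, Lpcat3 rose by 2.55 ± 0.52 (5.85-fold, limma adjusted p = 0.0472), but the call was lost whichever of the 7 libraries was left out (adjusted p 0.0613 to 0.18), and with a pseudocount of 0.1, an unmoderated test or a fit of these groups alone.

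In the ileum the 4 SBR WUSTL0717 libraries read 7.14, 8.53, 7.85 and 8.28 for Lpcat3, the SBR vehicle libraries 6.32, 6.03, 5.63 and 7.21 and the sham libraries 6.37, 6.01 and 6.35. The lowest treated library was under the highest SBR vehicle library, so these groups overlapped. The compound difference was 1.65 ± 0.38 (3.15-fold, 95% interval 0.82 to 2.49), which limma did not call (adjusted p = 0.345). Against sham it was 1.71 ± 0.41 (adjusted p = 0.0594, and 0.0391 without treated library 1). Resection alone left the ileal level of Lpcat3 at 0.054 ± 0.41 from sham, a sign that turned under centring of libraries, quantile normalization and the replicate block. Lpcat3 was at 7.95 in treated ileum, 7.63 in treated duodenum, 6.30 in SBR vehicle ileum, 6.24 in sham ileum, 5.57 in SBR vehicle duodenum and 5.08 in sham duodenum, and no neighbouring groups in that order were separated. The compound effects in ileum and duodenum differed by -0.40 ± 0.63 (95% interval -1.71 to 0.90, limma adjusted p = 1).

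Liver Lpcat3 was 6.80 to 7.12 in the 5 sham libraries, 6.70 to 7.57 with a median of 7.33 in the 8 SBR vehicle libraries, and 7.08, 7.64, 7.63, 7.71 and 7.20 in the 5 treated libraries. The groups overlapped, and the compound difference was 0.21 ± 0.15 (limma adjusted p = 0.542). The effect in the duodenum exceeded that in the liver by 1.85 ± 0.44 log2 units (95% interval 0.96 to 2.75, limma adjusted p = 0.0233), and that in the ileum exceeded it by 1.45 ± 0.44 (adjusted p = 0.203). The duodenal call was lost without SBR vehicle duodenum library 2 or 4, treated duodenum library 4, or treated liver library 1 or 5. Across the 22 intestinal libraries the genes most like Lpcat3 by Pearson r were Crat (r = 0.92), Abcg8 (0.92) and Abcg5 (0.92), of which the last pair encode the sterol exporter of the enterocyte brush border. All these libraries share tissue, treatment and processing.

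Mylip, whose product removes lipoprotein receptors, was higher with WUSTL0717 in both intestinal regions and level in the liver. In the duodenum the treated libraries read 4.36, 3.22, 3.03 and 3.24, the SBR vehicle libraries 1.84, 1.69, 2.18 and 1.30 and the sham libraries 2.66, 2.45 and 2.41. The 3 groups did not overlap, with SBR vehicle lowest, sham between and treated highest. The compound difference was 1.71 ± 0.35 (3.28-fold, 95% interval 0.96 to 2.47), which limma did not call (adjusted p = 0.0864) except under centring on the library median (0.0475) and with library weights (0.0332). The exact permutation p was 0.0286. SBR vehicle stood 0.76 under sham on average (-0.76 ± 0.38, limma adjusted p = 0.333). The level was low, with means of 4.69, 2.44 and 10.9 TPM in sham, SBR vehicle and treated duodenum.

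In the ileum Mylip read 8.17, 5.61, 6.03 and 6.46 with the compound, 5.18, 3.81, 4.05 and 4.04 in SBR vehicle and 5.24, 5.46 and 4.19 in sham. All treated libraries were above all others, and library 1 stood far over the other treated libraries. The difference of 2.30 ± 0.53 (4.92-fold, 95% interval 1.15 to 3.45) was not called by limma (adjusted p = 0.345), and it was 1.76 without that library. The effect in the ileum exceeded that in the liver by 2.25 ± 0.47 (95% interval 1.30 to 3.20, limma adjusted p = 0.0161), a call lost without SBR vehicle ileum library 2 or treated ileum library 1. The same difference for the duodenum was 1.67 ± 0.47 (adjusted p = 0.0878), and the effects in ileum and duodenum differed by 0.58 ± 0.65 (adjusted p = 1).

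Sham mice already had more Mylip in ileum than in duodenum (duodenum minus ileum -2.46 ± 0.53 on the log2 scale, 5.49-fold, limma adjusted p = 0.00333). The median gene was 0.52 lower in sham duodenum, which leaves -1.94 relative to it. In the liver, Mylip lay between 4.13 and 4.99 in all 18 libraries, with means of 4.41, 4.66 and 4.71 in sham, SBR vehicle and treated mice, and the compound difference was 0.048 ± 0.15 (95% interval -0.27 to 0.37, limma adjusted p = 0.933). The genes most like it across the intestine were Mfsd13a (r = 0.88), Sardh (0.87) and 4931428L18Rik (0.85).

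Pltp, the plasma phospholipid carrier, had its clearest difference in the liver. Sham livers read 5.42, 4.86, 4.51, 4.83 and 5.37, the 8 SBR vehicle livers ran from 4.49 over a median of 5.22 to 5.73, and treated livers read 5.42, 6.11, 6.46, 5.78 and 5.57. The treated and SBR vehicle groups overlapped in part, with means of 59.4 and 36.5 TPM. The compound difference was 0.68 ± 0.21 (1.60-fold, 95% interval 0.24 to 1.11), which limma did not call (adjusted p = 0.0743) but did after centring on the library median (0.0176) or quantile normalization (0.0304). The exact permutation p over these 13 livers was 0.00932. Against sham, Pltp rose by 0.87 ± 0.23 (limma adjusted p = 0.0107), or 0.60 more than the median gene, and this call held with each of the 10 libraries left out but not after centring or quantile normalization.

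In the intestine the spread of Pltp was wide. Duodenal values were 2.62, 3.81 and 4.95 in sham, 3.33, 1.79, 3.60 and 2.63 in SBR vehicle and 3.99, 3.51, 3.35 and 3.69 with the compound. Ileal values were 4.60, 5.38 and 5.22 in sham, 5.64, 4.70, 5.79 and 5.34 in SBR vehicle and 5.37, 7.29, 6.14 and 6.14 with the compound. All these groups overlapped within their region, and the compound differences of 0.80 ± 0.52 in duodenum (limma adjusted p = 1) and 0.87 ± 0.40 in ileum (adjusted p = 0.727) were not called. Without treated ileum library 2, the highest, the ileal value was 0.52. Setting ileum or duodenum against liver, the compound effects differed by 0.19 ± 0.51 and 0.12 ± 0.51, with 95% intervals from -0.84 to 1.21 and from -0.90 to 1.14.

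Npc1, the late endosomal cholesterol exporter, had its largest difference between the regions of the gut. Its 11 ileal libraries ran from 4.60 to 5.88 and its 11 duodenal libraries from 2.24 to 3.85, with no overlap. In sham mice alone the duodenum read 2.73, 3.17 and 3.61 and the ileum 5.46, 4.91 and 5.88, a difference of -2.25 ± 0.39 (4.74-fold lower in duodenum, limma adjusted p = 0.000397) and of -1.73 relative to the median gene. Npc1 spans 12189692 to 12236400 on the minus strand of chromosome 18 and shares 4908 bases with Gm15956, an antisense transcript, and 967 bases with Rmc1. Gm15956 was also lower in sham duodenum (-2.20, limma adjusted p = 0.00441). Per the study, counts came from reads that were uniquely aligned and unambiguous, and whether counting used strand is not stated. The part of this overlap in the Npc1 values was not tested.

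With WUSTL0717, ileal Npc1 read 5.38, 5.61, 5.36 and 5.68 against 5.15, 4.78, 4.60 and 4.84 in SBR vehicle. The groups did not overlap, yet the step was small at 0.67 ± 0.26 (1.59-fold) and was not called by limma (adjusted p = 0.639, exact permutation p = 0.0286). Gm15956 was at 0.60 ± 0.33 in the same comparison, and the part of its overlap with Npc1 in this step was not tested. For Npc1, treated ileum lay near sham ileum, at 0.092 ± 0.28, and that sign turned under quantile normalization. In the duodenum the treated libraries read 3.09, 2.62, 2.72 and 3.21 and the SBR vehicle libraries 3.70, 2.24, 3.85 and 2.84, which overlapped (-0.25 ± 0.40, adjusted p = 1). The effects in ileum and duodenum differed by 0.91 ± 0.48 (adjusted p = 1). In the liver, Npc1 lay between 4.43 and 5.25 in all libraries, and the compound difference was 0.13 ± 0.12 (95% interval -0.12 to 0.37, adjusted p = 0.66).

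Tsku fell after resection in the ileum, and the mean of the treated libraries was above that of SBR vehicle in every tissue. Ileal Tsku was 5.40, 5.90 and 4.97 in sham, 3.34, 2.21, 2.92 and 3.10 in SBR vehicle and 3.99, 3.71, 4.42 and 5.46 with the compound, or means of 43.5, 6.73 and 22.6 TPM. Every SBR vehicle library lay under every sham library and under every treated library. The fall with resection was -2.53 ± 0.42 (5.78-fold lower, 95% interval -3.46 to -1.61, limma adjusted p = 0.0282), and the exact permutation p of 0.0571 was the smallest that 4 against 3 libraries allow. The call was lost whichever of the 7 libraries was left out (adjusted p 0.056 to 0.16), with the value between -2.76 and -2.29, and by an unmoderated test or a fit of these groups alone.

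The compound difference for ileal Tsku was 1.50 ± 0.39 (2.83-fold, 95% interval 0.65 to 2.36), not called by limma (adjusted p = 0.422, exact permutation p = 0.0286). Treated ileum was still 1.03 under sham on average (-1.03 ± 0.42, adjusted p = 0.295), and those groups overlapped. Both differences use the same 4 SBR vehicle libraries, so they are not independent.

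In the duodenum Tsku read 5.33, 5.99 and 6.75 in sham, 6.76, 6.62, 7.65 and 6.66 in SBR vehicle and 7.62, 7.26, 7.60 and 7.93 with the compound. Sham and SBR vehicle overlapped at their edge (0.90 ± 0.45, limma adjusted p = 0.334), as did SBR vehicle and treated (0.68 ± 0.42, adjusted p = 1). The resection effect in ileum differed from that in duodenum by -3.43 ± 0.62 (95% interval -4.72 to -2.15, limma adjusted p = 0.0277), or -3.88 relative to the median gene. It held in 6 of 14 fits with a library left out and was lost without sham ileum library 1 or 2, SBR vehicle ileum library 2, 3 or 4, sham duodenum library 1 or 2, or SBR vehicle duodenum library 3. In sham mice duodenum and ileum differed by 0.60 ± 0.47 (adjusted p = 0.385), so the gap between the regions was widest in SBR vehicle mice, at 126 TPM in duodenum against 6.73 TPM in ileum.

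Liver Tsku was 5.20, 5.71, 6.31, 6.07 and 5.42 in sham, 5.57 to 6.99 with a median of 6.38 in SBR vehicle, and 7.28, 5.85, 5.94, 6.82 and 7.08 with the compound. These groups overlapped. Resection shifted it by 0.63 ± 0.28 (limma adjusted p = 0.0758) and the compound by a further 0.23 ± 0.28 (adjusted p = 0.766), and treated liver rose against sham by 0.85 ± 0.31 (adjusted p = 0.0441), or 0.59 above the median gene. That last call was lost without sham library 1, 2 or 5 or treated library 1, 4 or 5, and after centring, quantile normalization or the unmoderated test (adjusted p up to 0.18). In bulk tissue, fewer cells of a type and less RNA per cell cannot be told apart.

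**Figure D2:**
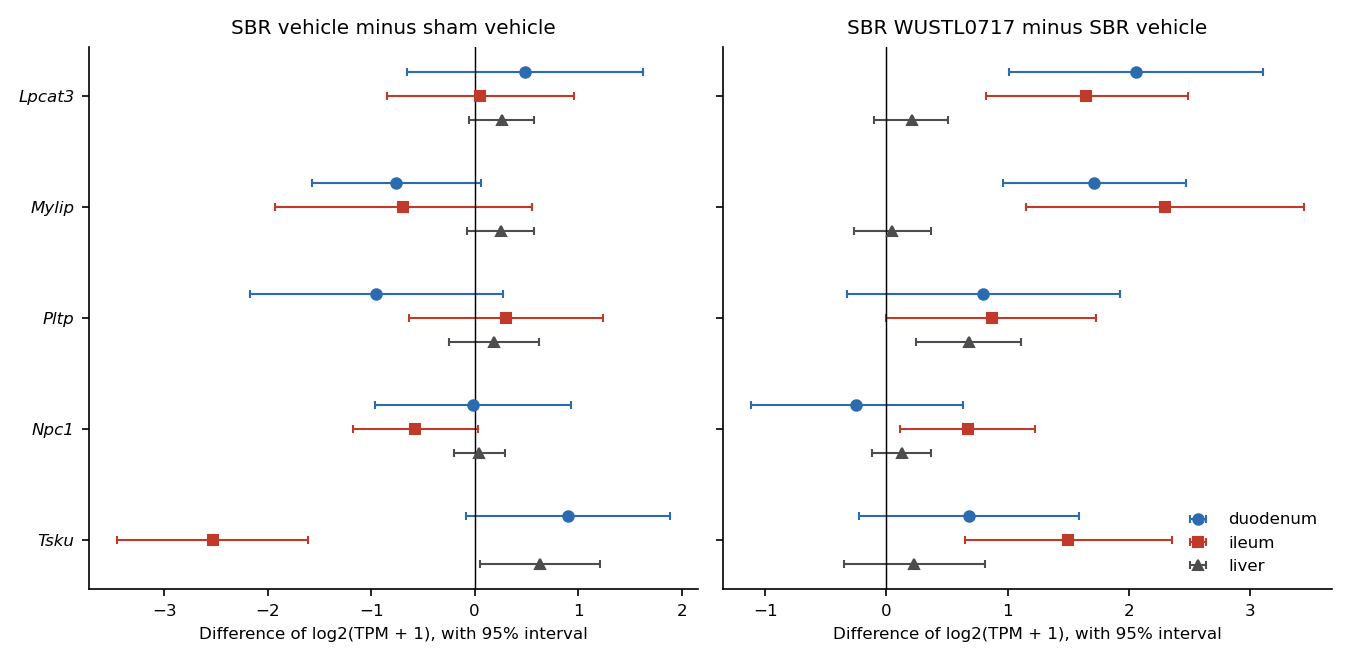
Difference of each gene for resection (SBR vehicle minus sham) and for the compound (SBR WUSTL0717 minus SBR vehicle) in duodenum, ileum and liver, on the log2 scale, with 95% intervals from limma. Circles are duodenum, squares ileum and triangles liver. Of the points shown, Tsku for resection in the ileum, at -2.53, is the one called at an adjusted p under 0.05, while Lpcat3 and Mylip lie at 1.65 to 2.30 for the compound in both intestinal regions.

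Of the 5 genes, 0 were called between SBR WUSTL0717 and SBR vehicle in the duodenum, where limma called 39 of 15093 genes (0.258%), and 0 in the ileum, where it called 11 of 15772 (0.0697%). At an unadjusted p under 0.05, 2 members passed in the duodenum (Lpcat3 and Mylip), beside 802 of 15093 genes, and 5 in the ileum, beside 1083 of 15772. An unmoderated two-sample test with adjustment called 0 members in each, but it called only 2 and 1 of all genes there. In the liver 0 of the 5 were called against 652 of 15901 genes (4.1%). There 1 had an unadjusted p under 0.05 (Pltp), beside 2738 of all genes, and the unmoderated test called 0 of all genes. All treated libraries lay above all SBR vehicle libraries for 2 of the 5 genes in duodenum (Lpcat3 and Mylip) against 2.11% of genes, for 3 in ileum (Mylip, Npc1 and Tsku) against 2.56%, and for 0 in liver against 1.23%. The median difference over the 5 was 0.80 in duodenum, 1.50 in ileum and 0.21 in liver, beside all-gene medians of 0.041, 0.0031 and 0.021.

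For resection, 0 of the 5 were called in duodenum, where limma called 0 of 15093 genes (0%) with 2426 at an unadjusted p under 0.05 and the unmoderated test called 1. In ileum 1 was called (Tsku) against 0.349% of genes. In liver 0 were called against 41.9% of genes, most of them higher in SBR vehicle (5953 higher and 710 lower), a split that became 3245 and 4580 when each library was centred on its median. The liver differences of Lpcat3 (0.26), Mylip (0.25), Pltp (0.19) and Npc1 (0.046) lay beside an all-gene median of 0.25, and after centring they read -0.048, -0.054, -0.12 and -0.26.

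Between SBR WUSTL0717 and sham, 1 of the 5 was called in duodenum (Lpcat3) against 0.802% of genes, 0 in ileum against 2.17%, and 3 in liver (Lpcat3, Pltp and Tsku) against 28.8%. Lpcat3 in liver rose by 0.46 ± 0.16 (limma adjusted p = 0.0414), 0.19 of it above the median gene, and the call was lost without sham library 1, 2, 3 or 5 or treated library 2, 3 or 4 (adjusted p 0.0252 to 0.119 over the 10 fits), and after centring, quantile normalization or library weights (adjusted p up to 0.337). For the compound effect between ileum and duodenum 0 of the 5 were called against 0.0251% of genes. None had an unadjusted p under 0.05, beside 530 of 15923 genes. For the resection effect between these regions 1 was called (Tsku) against 0.0754%. Between sham duodenum and sham ileum 2 were called (Mylip and Npc1) against 14.6%. For the compound effect, 1 differed between ileum and liver (Mylip) against 0.232% and 1 between duodenum and liver (Lpcat3) against 0.953%, where the liver's tighter replicates and the batch correction, which rescales each batch, both enter the test.

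**Figure D3:**
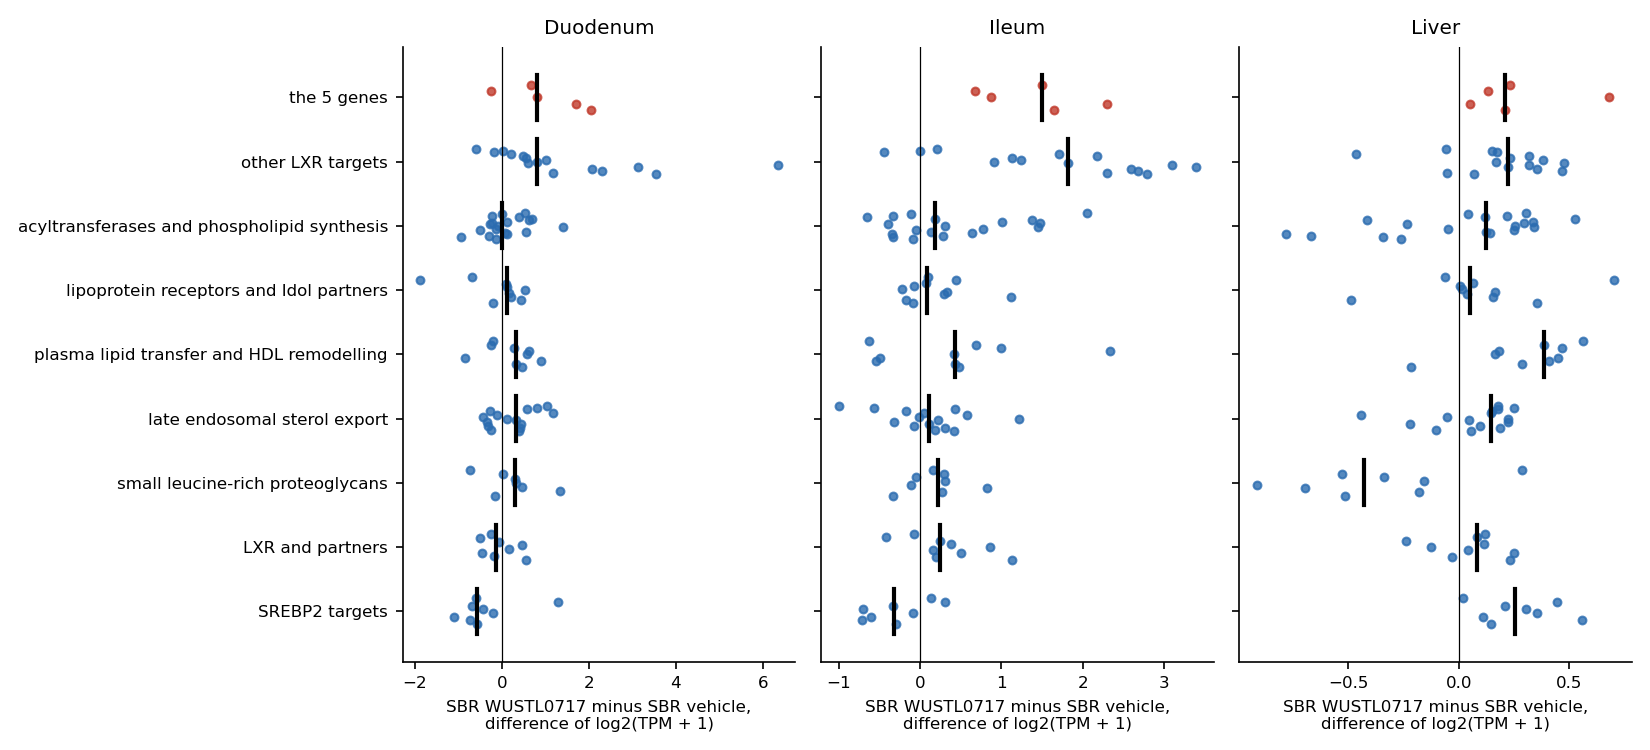
Compound difference (SBR WUSTL0717 minus SBR vehicle, log2 scale on the horizontal axis, with separate axis ranges) in each tissue for genes of the lists that surround the 5 members, 1 point per gene, 1 row per list and a black tick at each median. The other LXR targets reach 6.34 (Scd1) in duodenum and 3.39 (Srebf1) in ileum and have medians of 0.82 and 1.82, against 0.22 in liver.

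Among 15 other measured LXR targets, the compound raised 2 in duodenum, 5 in ileum and 1 in liver and lowered none at the threshold, where 0.252%, 0.0697% and 1.44% of all genes tested were called higher. Scd1, which desaturates fatty acids, rose by 6.34 ± 0.61 in duodenum (81.1-fold, limma adjusted p = 0.00306) and by 3.09 ± 0.40 in ileum (adjusted p = 0.022). Abca1, which loads cholesterol onto lipoproteins, rose by 3.55 ± 0.50 and 2.79 ± 0.34 (adjusted p = 0.0136 and 0.0165). Abcg5 and Abcg1 rose in ileum by 2.68 ± 0.36 and 2.30 ± 0.33, and Srebf1, a lipogenic transcription factor, was the fifth gene called there. Against the list medians, Lpcat3 (2.06) and Mylip (1.71) stood above 0.82 in duodenum, and in ileum Mylip (2.30) stood above and Lpcat3 (1.65) under 1.82, all of them lower than Scd1 and Abca1. In liver the gene called was Mlxipl (0.38 ± 0.083, adjusted p = 0.0173). Genes that encode LXRs and their partners had 0 calls for the compound in each tissue, where 0.258%, 0.0697% and 4.1% of all genes were called in either direction. Nr1h3, the LXRα gene, was at 0.56 in duodenum, 1.13 in ileum and 0.23 in liver.

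Beside Lpcat3, 19 other acyltransferases and phospholipid synthesis genes had compound medians of 0.00086 in duodenum, 0.18 in ileum and 0.12 in liver, against 2.06, 1.65 and 0.21 for Lpcat3. None was called by limma in duodenum or ileum, where 0.258% and 0.0697% of all genes were called. At an unadjusted p under 0.05, 1 was higher and 1 lower in duodenum and 4 and 0 in ileum. Over all genes 802 of 15093 and 1083 of 15772 passed that mark. Agpat2, an enzyme of phosphatidic acid synthesis, had the smallest p in both regions (1.40 ± 0.45 and 1.45 ± 0.32). In liver Chpt1, which makes phosphatidylcholine, rose by 0.53 ± 0.12, while Mboat1 and Lpcat4, lysophospholipid acyltransferases, fell by 0.78 and 0.67, beside 2.66% of all genes called lower. Resection alone had raised Mboat1, Lpcat4, Lpcat2 and Lpcat1 in liver (1.46, 1.25, 1.02 and 0.76), among 9 of 19 called higher and 1 lower. Over all genes 37.4% were called higher and 4.47% lower, a split that turned with centring. The list median was 0.23 beside an all-gene median of 0.25, and Lpcat3 was at 0.26.

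For Mylip the list of lipoprotein receptors and IDOL partners had 0 calls for the compound in each tissue, out of 9 genes in duodenum and 10 in ileum and in liver. Over all genes 0.258%, 0.0697% and 4.1% were called, so 0 in a list this short does not set it apart. Usp2, a deubiquitinase that counters IDOL, was at -1.87 ± 0.41 in treated duodenum (limma adjusted p = 0.126) and at 0.45 ± 0.33 in treated ileum. SREBP2 is a transcription factor active when sterol is low. Among 8 of its targets, Hmgcs1, an enzyme of cholesterol synthesis, rose with resection in ileum (2.25 ± 0.39, limma adjusted p = 0.0356). There 0.349% of all genes were called. All 8 had an unadjusted p under 0.05, beside 1334 of 15772 genes, and the list median was 1.68 against 0.071 for all genes. With the compound 0 of 8 were called in any tissue, at the all-gene shares given above for the compound. The medians were -0.58, -0.32 and 0.26 in duodenum, ileum and liver.

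Beside Pltp, 1 of 9 plasma lipid transfer genes was called for the compound in liver, where 4.1% of all genes were called, namely Lipc, the hepatic lipase (0.41 ± 0.11, limma adjusted p = 0.0454). In duodenum and ileum 0 were called, against 0.258% and 0.0697% of all genes. The list median in liver was 0.38. With resection Apom, an HDL apolipoprotein (-0.59 ± 0.15), and Lipc (-0.43 ± 0.11) fell in liver. Of the 9 genes, 2 were above 0, 0 were called higher and 3 were called lower. Over all genes 37.4% were called higher and 4.47% lower, a split that turned with centring. Beside Npc1, 0 of 15 late endosomal sterol export genes were called for the compound in any tissue, with medians of 0.32, 0.11 and 0.15. All-gene shares were 0.258%, 0.0697% and 4.1% in duodenum, ileum and liver. In liver 7 of 15 were called higher with resection, against 37.4% of all genes before centring. The list median of 0.26 lay beside an all-gene median of 0.25, so the count does not set the list apart. Among the 7 was Npc2, the soluble partner of NPC1 (0.48 ± 0.11). Npc1 itself was at 0.046 ± 0.12.

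Beside Tsku, among 8 other small leucine-rich proteoglycans in ileum, 0 were called for resection, 6 were above 0 and the median was 0.47, against -2.53 for Tsku, and Bgn, a matrix proteoglycan, was at 1.07 ± 0.37 (limma adjusted p = 0.354). In liver resection raised 7 of the 8, against 37.4% of all genes before centring, led by Lum (2.08 ± 0.25), Bgn (1.57 ± 0.16) and Podn (1.34 ± 0.15), and with the compound Lum fell by 0.91 ± 0.25 (adjusted p = 0.0429) and the median was -0.43. In duodenum 0 of 7 were called for the compound, against 0.258% of all genes, and the share for resection in ileum was 0.349%. Fibroblast and stellate markers moved with these genes in liver, with 61.3 to 98.7 summed TPM in sham, 287 to 505 in SBR vehicle and 153 to 309 in treated livers. Cholangiocyte markers did likewise, with 57.7 to 154, 312 to 637 and 172 to 403 summed TPM, and 4 of 4 were called higher with resection and 3 of 4 lower with the compound. Of the 5 epithelial markers, 5 were called higher and 3 lower in the same comparisons. Epcam is in both the cholangiocyte and the epithelial list, so their counts are not separate. Dcn is in both the proteoglycan list and the fibroblast and stellate list, so these are not separate either. Over all genes 37.4% were called higher with resection before centring and 2.66% lower with the compound. The part of these cells in the liver values was not tested.

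Markers of other cells differed between libraries beside the intestinal results, and their part in them was not tested. Sums of markers come after the batch correction, so they are compared within a tissue and are not amounts of a cell type. For hepatocyte markers the sums were 1515 to 1986 TPM in sham liver and 1070 to 1437 in sham duodenum. For epithelial markers they were 700 to 1075 and 522 to 548. Epithelial markers, as the sum of 5 genes, were 1746 to 2059 TPM in sham ileum, 1728 to 3836 in SBR vehicle and 2438 to 3672 with the compound, and these ranges overlapped. T and B cell markers were 21 to 34.3 in SBR vehicle ileum and 10.4 to 17.8 in treated ileum, with Ms4a1 not in the table. Hepatocyte markers in ileum ran from 576 to 1720 in SBR vehicle and from 1227 to 10303 with the compound, the top being treated ileum library 2, in which albumin read 12.70. Without that library the ileal compound differences were 1.46 for Lpcat3, 2.62 for Mylip, 0.52 for Pltp, 0.63 for Npc1 and 1.73 for Tsku. Pancreatic acinar markers varied in the duodenum from 12.1 to 449 in SBR vehicle and from 89.2 to 776 with the compound, and Cpa1, Prss2 and Pnlip were listed at 0 in every ileal group. No single marker was called for compound or resection in the intestine.

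In the liver, SBR vehicle libraries 2 and 3 were the lowest of their group for Lpcat3, Mylip, Pltp and Npc1, and their medians over all genes were 3.13 and 3.32 against 3.53 to 3.77 in the other 6. Albumin read 8.16 in SBR vehicle liver library 2 and 9.19 to 9.54 in the rest of that group. Hepatocyte marker sums in SBR vehicle livers ran from 715 over a median of 1513 to 1595 TPM. Pancreatic acinar sums there ran from 16.6 over a median of 23.8 to 795 TPM. The part of these in the liver values was not tested. Without library 2, Lpcat3 (0.34, limma adjusted p = 0.0341) and Tsku (0.74, adjusted p = 0.026) were called higher with resection. In that fit 9010 of 15901 genes were called, 8314 of them higher, and the all-gene median was 0.31. Pltp had a compound difference of 0.58 without library 2. Tsku was also called without sham library 3, where 6295 of 15900 genes were called. Pltp was called for the compound without SBR vehicle library 4 (0.0452 as the lowest adjusted p), where 637 of 15899 genes were called. Across the 18 livers Lpcat3 and Pltp moved alike (r = 0.83), as did Mylip and Npc1 (r = 0.85), whereas Tsku and Pltp did not (r = 0.10), and in the intestine r between members was 0.13 to 0.52. The genes most like each member in liver were Vac14 for Lpcat3 (0.95), Aktip for Mylip (0.96), Cyb5r3 for Pltp (0.95), Zranb1 for Npc1 (0.95) and Palld for Tsku (0.89). In the intestine they were Pon2 for Pltp (0.87), Asap2 for Npc1 (0.85) and Cyb5r3 for Tsku (0.88). These correlations are descriptions over libraries that share treatment and scaling.

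Some exons lie under genes on the other strand. Lpcat3 shares 334 bases with Emg1 and Pltp shares 1515 bases with Ctsa, and strand-specific counting is not stated. Emg1 was at 0.62, 0.16 and 0.16 for the compound in duodenum, ileum and liver, and Ctsa at 0.44, 0.15 and 0.17, each below the value of the member it overlaps. Gm15956, which overlaps Npc1, was at -0.017, 0.60 and 0.068, beside -0.25, 0.67 and 0.13 for Npc1. Mylip and Tsku overlap no annotated gene.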

How the data were processed

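Bulk RNA-seq values of 40 libraries were analysed. Per the labels and the study's methods, ribosomal RNA was removed and reads were aligned to GRCm38 with STAR. Reads that were uniquely aligned and unambiguous were counted with featureCounts. The authors then scaled libraries by TMM in edgeR, computed TPM, removed genes at 0 in all libraries and corrected for batch with ComBat. The deposited values are log2(TPM + 1) per gene, of which 2752 are below 0 after ComBat. Read depth is unknown, so no counting interval was possible. Groups came from the labels. Genes with a mean log2 value of at least 1 were tested with limma 3.58.1 (R 4.3.3), with a variance trend, 1 fit per tissue over its 3 groups, 1 fit over the intestine and 1 fit over all libraries, and with Benjamini-Hochberg adjustment over all genes tested. Single values were tested by exact two-sided permutation (scipy 1.17.1). The test was tested on simulated data. The members, all lists and the tests were chosen with earlier results of these data known, so no p was adjusted over a list alone. From each list at most 4 genes were named, first those called and then those with the smallest p, and genes named beyond that were chosen after their values were seen, as were the libraries named as left out. Alternatives covered filters, pseudocounts, scaling, library weights, test, block and each library left out. Gene positions are from GENCODE M21. The Npc1 promoter was not used here. Results for some genes of the lists are not reported here.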

Additional observations from a re-analysis of the deposited data

Results flagged for a closer look

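Mylip in the SBR WUSTL0717 duodenum had 1 library, library 1, at 4.36 on the log2 scale, far from the next at 3.24. Without it the compound difference was 1.41 in place of 1.71. Tsku in the SBR vehicle duodenum had library 3 at 7.65 against 6.76 for the next, and without it the resection difference was 0.66 in place of 0.90. Of 35 groups tested for such a gap, chance marks about 1 in 20.

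Effects of the same contrast differed between tissues, by limma's test of the difference, for 3 members. The resection effect on Tsku in ileum minus that in duodenum was -3.43. The compound effect on Mylip in ileum minus that in liver was 2.25. The compound effect on Lpcat3 in duodenum minus that in liver was 1.85. The values from the liver come from another batch, and the part of the batch correction was not tested.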

How the results depend on the processing

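Of 692 values of single genes under other settings, 626 kept their direction and their side of the threshold, 15 lost a call, 18 gained one and 33 turned sign. Of 139 counts of called members, 115 stayed alike. The causes were not tested except where the setting leaves fewer libraries. Numbers of called members were as follows. Centring each library on its median gave 1 for SBR WUSTL0717 against SBR vehicle in duodenum and in liver, 2 against sham in duodenum, 1 against sham in ileum, 0 against sham in liver, and 1 for resection in liver. Quantile normalization gave 1 for compound and 1 for resection in liver, 0 against sham in liver, and 2 for the ileum-to-liver difference. Library weights gave 1 and 2 in duodenum for the compound against SBR vehicle and sham, 1 in ileum against sham, 3 in liver for resection and 2 for the ileum-to-liver difference. The unmoderated test and a fit of the 2 compared groups alone each gave 0 for duodenum against sham and 0 for ileal resection. A pseudocount of 0.1 gave 0 for duodenum against sham and 2 for the duodenum-to-liver difference, and a filter at 3 gave 1 for ileum against sham, in which fit of the duodenum Mylip was not tested.

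Signs turned mostly where values were near 0. For resection in duodenum, Npc1 was 0.013 with a pseudocount of 5, 0.39 centred and 0.37 with quantiles. Against sham in duodenum, Pltp was 0.21 centred and 0.19 with quantiles, and Npc1 0.10 and 0.092. For ileal resection, Lpcat3 was -0.022 centred and -0.08 with quantiles, and Npc1 against sham in ileum was -0.12 with quantiles. For resection in liver, centring gave -0.048 for Lpcat3, -0.054 for Mylip, -0.12 for Pltp and -0.26 for Npc1, and quantiles gave -0.0029 for Mylip, -0.045 for Pltp and -0.19 for Npc1. Against sham in liver, Mylip was -0.0008 and Npc1 -0.13 centred, and Npc1 -0.11 with quantiles. With library weights the compound in liver read -0.039 for Lpcat3, -0.11 for Mylip and -0.028 for Npc1. For the compound, ileum minus duodenum, Lpcat3 was 0.072 with quantiles and Pltp -0.035 with a pseudocount of 0.1 and -0.44 with weights. For resection, ileum minus duodenum, Lpcat3 was 0.11 with weights and Mylip -0.21 with a pseudocount of 5, -0.41 centred and -0.46 with quantiles. Duodenum minus liver, Pltp was -0.098 with a pseudocount of 5 and Npc1 0.033 with weights.

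The replicate numbers were not taken to pair the libraries. The correlation of same-numbered deviations was -0.30 to 0.33 in duodenum, -0.32 to 0.24 in ileum and -0.20 to 0.17 in liver. Between same-numbered duodenum and ileum libraries it was -0.14 to 0.45, above 0.1 in 5 of 11, and the contrasts of these regions treat the libraries as independent. With the replicate block, 0 members were called for duodenum against sham and for ileal resection, where Tsku was -2.74, Lpcat3 in ileal resection was -0.15, and 4 were called for liver against sham.

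Leaving out 1 library at a time gave 0 to 0 called members for duodenum against sham and for ileal resection, 0 to 1 for ileum against sham, 0 to 2 for resection in liver, 0 to 1 for the compound in liver, 1 to 3 for liver against sham, 0 to 1 for the Tsku contrast of regions, 2 to 3 for sham duodenum against sham ileum, and 0 to 1 for either intestinal region against liver. It turned signs for Npc1 in duodenal resection (-0.25 to 0.29), Pltp in duodenum against sham (-0.74 to 0.43), Lpcat3 in ileal resection (-0.25 to 0.28), Npc1 in ileum against sham (-0.16 to 0.32) and Mylip with the compound in liver (-0.027 to 0.10), and for Pltp (-0.28 to 0.42), in resection Lpcat3 (-0.78 to 0.051) and Mylip (-0.32 to 0.31) between ileum and duodenum, and for Pltp between ileum (-0.16 to 0.48) or duodenum (-0.23 to 0.37) and liver.

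Over all genes, library weights gave the highest counts in most comparisons, 2497 against 0 called for duodenal resection, 279 against 55 for ileal resection and 85 against 39 for the compound in duodenum, and 1989 against 12 for resection between regions. The unmoderated test gave 5 for ileal resection, 2 and 1 for the compound in duodenum and ileum against 39 and 11, and 0 in liver against 652, which became 3133 after centring. Counts against sham ran from 1 to 1124 in duodenum (121), from 31 to 764 in ileum (343) and from 3120 to 8387 in liver (4580). Resection in liver ran from 4180 to 10462 (6663), with 89.3% higher against 41.5% centred and 45.6% with quantiles. The compound in liver was 35.1% higher against 58.4% and 48.8%, and sham duodenum 26.2% higher against 58.3% and 53.8%. Rank correlation kept 7 of 15 most like genes in intestine and 4 of 15 in liver. Depth is unknown, and with 3 to 4 libraries a group the intestine has wide intervals.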
